A study of Mus musculus with 24 samples.

Results

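The genes of the constitutive proteasome were followed in optogenetic mouse muscle that was exercised with light. They were taken by name, as every gene called Psma, Psmb, Psmc, Psmd, Psme, or Psmf with a number, except the 3 immunoproteasome genes Psmb8, Psmb9, and Psmb10. That gave 41 of the 56941 genes listed. They comprise 16 genes of the 20S core, 17 of the 19S regulatory particle, 3 chaperones that assemble the regulatory particle, and 5 genes of alternative caps and regulators. Of these, 39 passed the filter on low counts and were tested among 13315 genes. The tissues were C2C12, a mouse myoblast line that fuses into contractile myotubes, carrying the light-gated channel ChR2 fused to tdTomato (ChR2::tdTomato) in every group, controls included. They were grown on fibrin gels, differentiated for about 2 weeks in horse serum with IGF-1, and either left unstimulated (Control) or stimulated with blue light for 60 min each day at 1, 4, or 10 Hz, with 6 libraries per group and 24 in all. The unstimulated tissues twitched spontaneously, so the control is a tissue without light training and not one without contraction. Whether the line was derived from 1 clone is not given in the sources used here.

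The proteasome is the protease that degrades most ubiquitin-tagged proteins of the cytosol and nucleus, and in skeletal muscle it carries out much of the breakdown of myofibrillar protein during atrophy and remodeling. Its 20S core is a barrel of outer alpha rings, which form the gate, and inner beta rings, which hold the catalytic sites. The 19S regulatory particle sits on the barrel and consists of a base, with an ATPase ring that unfolds substrates, and a lid, which removes ubiquitin. Other caps (PA28αβ, PA28γ, and PA200) can open the core without ubiquitin. The transcription factor NRF1 (Nfe2l1) is known to raise the subunit genes together when proteasome activity falls short.

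The libraries held 8052369 to 18159144 estimated counts. The labels call the cells myoblasts of muscle tissue. All 10 myotube markers had counts in every library, with Acta1, the skeletal muscle actin, at a median of 6720 TPM (transcript abundance scaled by length), while the summed TPM of 4 markers of undifferentiated myoblasts was 55.4 to 108. Markers of immune, fat, and epithelial cells were at or near 0 (Ptprc listed at 0 in 22 of 24 libraries, Adipoq in 20, and Epcam in 21), apart from Cd68, a lysosomal protein, at 55.1 to 102 TPM. The libraries differed in a way that involved transcript length. When all tested genes were divided by length into 3 equal groups, the shortest group stood above the longest by -0.24 to 0.01 in log2 CPM in the controls, by -0.22 to 0.54 at 1 Hz, by -0.05 to 0.49 at 4 Hz, and by -0.34 to 0.11 at 10 Hz, relative to the average of all libraries. It exceeded 0.25 in 5 libraries, namely 1 Hz replicates 4 and 6 and 4 Hz replicates 1, 3, and 4. RNAs without a poly(A) tail (Rn7sk, Rmrp, and Rpph1) summed to 24.5 to 92.1 TPM in the controls, 71.2 to 296 at 1 Hz, 74.2 to 464 at 4 Hz, and 35.5 to 135 at 10 Hz. The labels mention that low-input samples were ribodepleted in place of poly(A) selection, without naming them. Mitochondrial genes took 12.6% of the summed TPM in 4 Hz replicate 3, against 0.876 to 7.27% in the other libraries. Proteasome transcripts are short, and their values are therefore given below with and without this trend.

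In the control tissues, the subunits of the core and the regulatory particle were expressed at similar levels per length. Of the 14 core genes tested, the median TPM ran from 87.1 for Psmb5, the chymotrypsin-like catalytic subunit, to 291 for Psmb4, a structural beta subunit. The 17 genes of the regulatory particle ran from 121 TPM for Psmd6, a lid subunit, to 370 for Psmd8, also of the lid. Psmd8 was the highest of all members, and its lowest control library (341 TPM) lay above the median of every other member. The ranges of the next genes in the order (Psmb4, Psmc3, Psmb3, Psma7, and Psmb6) overlapped one another. The chaperones, caps, and regulators ran from 25.2 TPM for Psmd10 (gankyrin) to 96.2 TPM for Psme3 (PA28γ), whose control range of 91.9 to 115 TPM overlapped that of Psmb5 (82.4 to 96.3) and of Psma2 (93.6 to 119). The other 7 stood below every subunit tested of the core and the regulatory particle. The tissue-restricted alternatives of the core were hardly present. Psma8, the alpha subunit of testis, had 1 count in 1 library, and Psmb11, the beta subunit of the thymic cortex, had 9 counts over 8 libraries, with no library above 2.

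**Figure D1:**
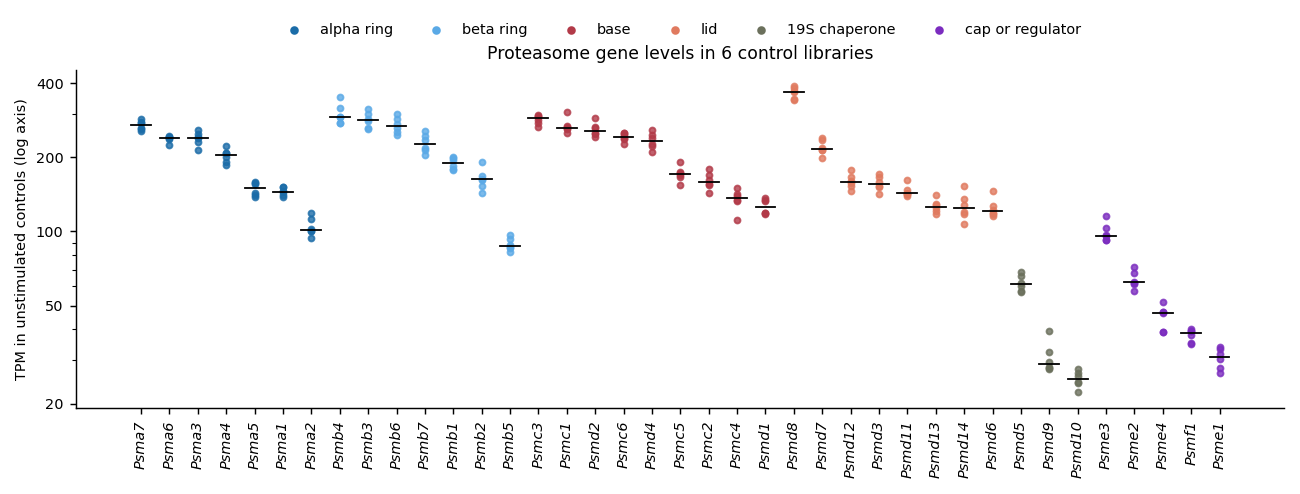
Level of the 39 tested proteasome genes in the 6 unstimulated control libraries, in TPM on a log axis. Each point is 1 library, and the black bar is the median. Psmd8 of the lid stood highest at a median of 370 TPM, and the chaperones, caps, and regulators had medians of 25.2 to 96.2 TPM, with Psme3 the highest of them.

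To examine how the proteasome responded to training, each frequency was compared with the control. Members passed the test in both directions at 1 and 4 Hz and in neither direction at 10 Hz, with log2(FC) between -0.71 and 0.63. In bulk RNA, fewer cells of a type and less RNA per cell cannot be told apart. At 1 Hz, 3 of 39 members rose and 7 fell at an adjusted p under 0.05, while 19.2% and 18.1% of all tested genes did so. At 4 Hz, 8 members rose and 9 fell, beside 27.5% and 23.9% of all genes. These shares of members were near or below those of all genes at both frequencies. With the added requirement of an absolute log2(FC) over 0.5, 1 member rose and 1 fell at 1 Hz (7.19% and 7.74% of all genes), and 3 rose and 1 fell at 4 Hz (12.8% and 12.3%). At 10 Hz, edgeR called 0 members, as did DESeq2 and limma on TPM, with 1 member at an unadjusted p under 0.05, and 0.0376% of all genes (5 genes) were called in either direction. At 4 Hz, 4 genes of the core rose and 0 fell, and 1 gene of the regulatory particle rose and 6 fell, a division between the particles that was not tested in itself.

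**Figure D2:**
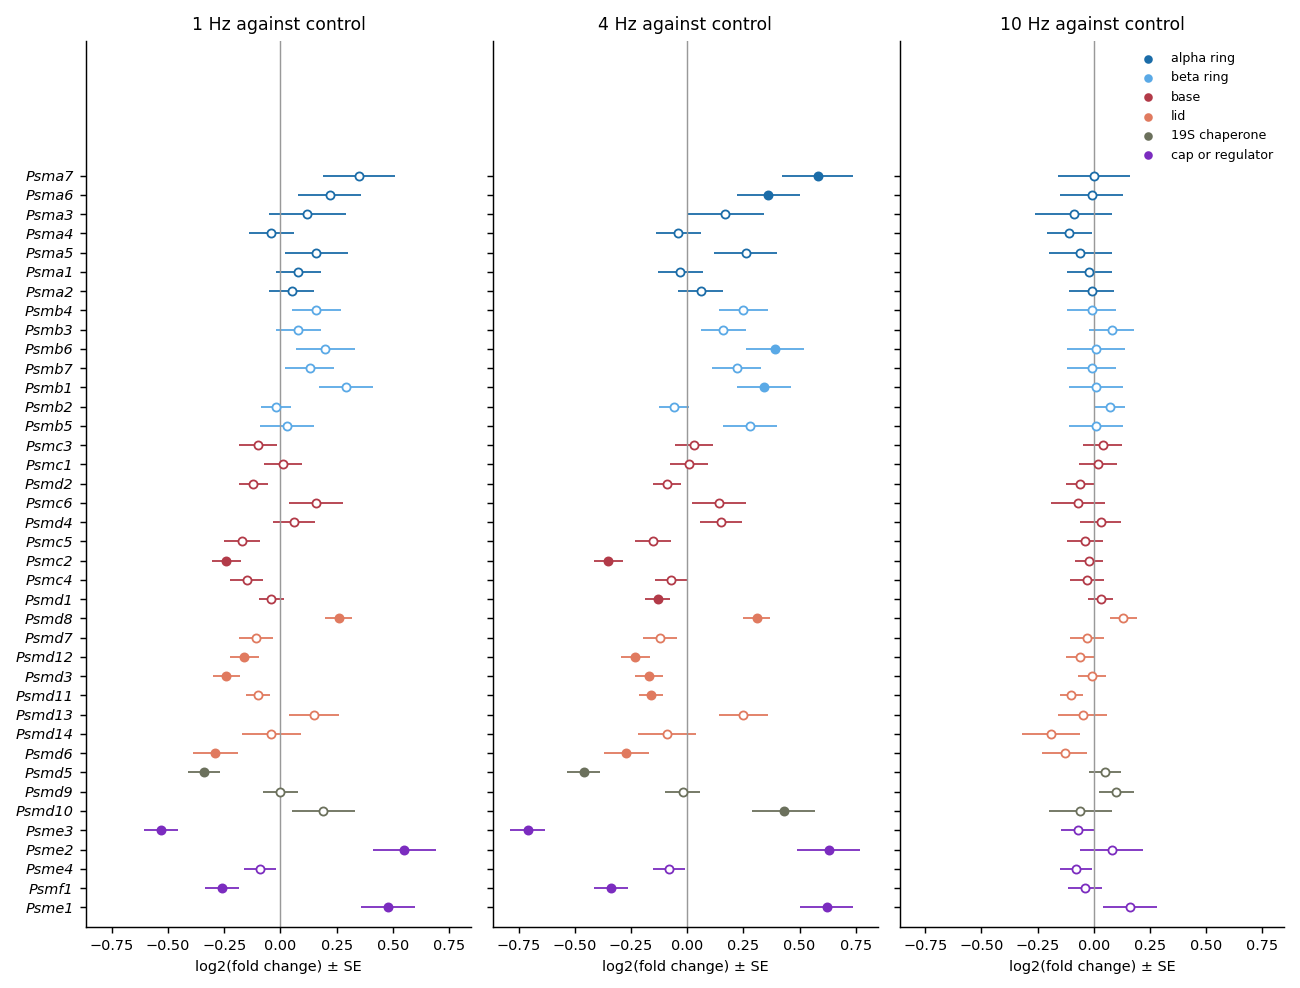
Change of the 39 tested proteasome genes against the control at 1, 4, and 10 Hz, as log2(fold change) from edgeR with its standard error (n = 6 libraries per group). Filled points passed an adjusted p of 0.05 over 13315 genes. Psme1 and Psme2 lie at the right and Psme3 and Psmd5 at the left of the panels for 1 and 4 Hz, and no point is filled at 10 Hz.

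Of the 14 core genes, 11 had a positive log2(FC) at 4 Hz, where 4 rose, beside 27.5% of all genes. The median of the 14 was 0.24, with 0.06 over all genes. At 1 Hz the median was 0.12, with 0.04 over all genes, and 0 core genes passed the threshold. At 10 Hz the median was -0.01. Among the gate-forming alpha subunits, Psma7 (chr2:179678155-179684421, minus strand, GRCm39) changed most. Its CPM (counts scaled to library size with TMM factors) had a lowest, median, and highest value of 121, 128, and 140 in the controls, 123, 151, and 235 at 1 Hz, 139, 185, and 284 at 4 Hz, and 108, 131, and 152 at 10 Hz. The 4 Hz libraries spread widely, and the lowest of them lay just under the highest control. This amounted to a log2(FC) of 0.35 ± 0.16 (SE) at 1 Hz and 0.58 ± 0.16 at 4 Hz (adjusted p = 0.097 and 0.0049), and 0.00 ± 0.16 at 10 Hz. Psma6, another alpha subunit, had 127, 135, and 141 CPM in the controls and 135, 164, and 229 at 4 Hz. It rose by a log2(FC) of 0.36 ± 0.14 (adjusted p = 0.032), a call that was lost when any of 7 single libraries was left out. The remaining alpha genes lay between -0.04 (Psma4) and 0.26 (Psma5) at 4 Hz and did not pass.

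The 3 catalytic beta subunits all had positive values at 4 Hz, and 1 of them passed the test. Psmb6, which cuts after acidic residues, had 98.4, 105, and 123 CPM in the controls, 92.1, 110, and 167 at 1 Hz, and 115, 143, and 164 at 4 Hz. It rose at 4 Hz by 0.39 ± 0.13 (adjusted p = 0.012). Psmb7, the trypsin-like subunit, had a log2(FC) of 0.13 ± 0.11 at 1 Hz and 0.22 ± 0.11 at 4 Hz (adjusted p = 0.11). Psmb5, the chymotrypsin-like subunit and the target of bortezomib, had 36.7, 38.9, and 44.7 CPM in the controls, 32.6, 34.9, and 57.6 at 1 Hz, and 39.9, 48.6, and 55.7 at 4 Hz. Its log2(FC) at 4 Hz was 0.28 ± 0.12, just outside the threshold (adjusted p = 0.052), and that at 1 Hz was 0.03 ± 0.12. Of the structural beta subunits, Psmb1 rose at 4 Hz, by 0.34 ± 0.12 (adjusted p = 0.017), with 182, 188, and 211 CPM in the controls and 205, 245, and 281 at 4 Hz. Psmb2, in contrast, had -0.06 ± 0.067 (adjusted p = 0.43).

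The values of the core moved with the length trend. All 14 core genes had transcripts shorter than the median tested gene, with a median of 0.375 times its length (from estimated counts over TPM), and 15 of 17 genes of the regulatory particle were shorter too, with a median of 0.575 times. Over all genes, the median log2(FC) at 4 Hz was 0.48 in the shortest of 10 equal length groups and -0.17 in the longest. When a smooth trend on length was removed from each library, the core median at 4 Hz became -0.02, with 2 core genes higher (Psma7 and Psmb1) and 4 lower, while 24.8% of all genes were higher and 24.5% lower. Psmb2 then had a log2(FC) of -0.41, Psma4 -0.27, Psma1 -0.23, and Psmb3 -0.23, each past the threshold. At 1 Hz the same step gave 0 core genes higher and 4 lower, with 19.3% and 19% of all genes. On log2(TPM + 1) with limma, which divides by length and is relative to total RNA, 0 core genes were higher and 4 were lower at 4 Hz (median -0.10), and 0 and 2 at 1 Hz (median -0.11). On this scale 5.92% of all genes were higher and 35.9% lower at 4 Hz, and 3.64% and 21.9% at 1 Hz. The median of all genes was -0.21 at 4 Hz and -0.14 at 1 Hz, so the core median lay above it at both. Without the 5 libraries in which the trend was strongest, the core median was 0.02 at 4 Hz and -0.12 at 1 Hz, and 0 core genes rose at 4 Hz. In that fit, 15.8% of all genes were higher and 16.4% lower at 1 Hz, and 16.9% and 19.9% at 4 Hz. The part of transcript length in the rise of the core was not tested further.

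**Figure D3:**
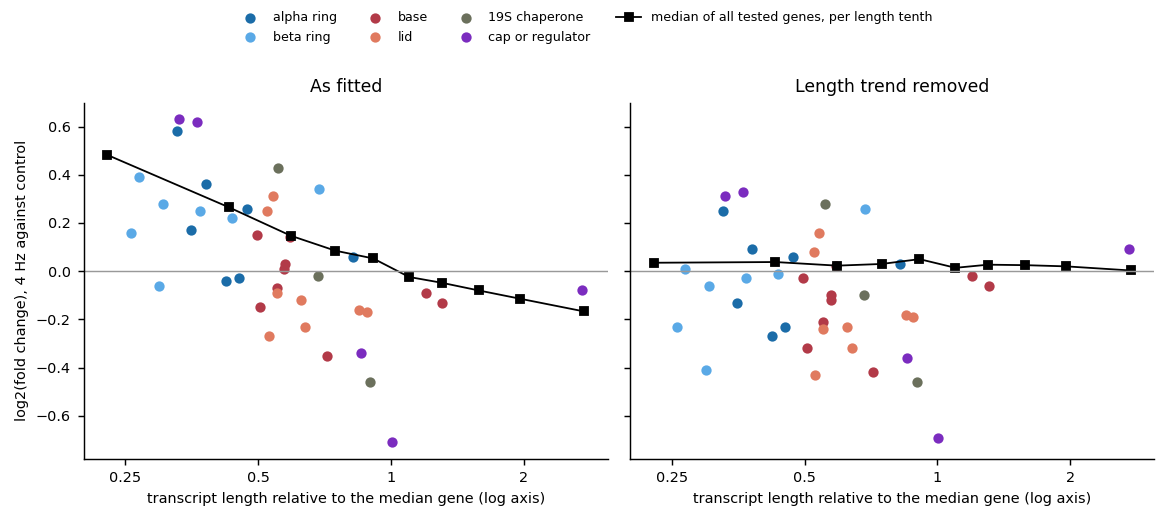
Log2(fold change) at 4 Hz against control for 39 proteasome genes (colored points) by transcript length relative to the median tested gene (log axis), as fitted and with the length trend removed. Black squares are the medians of all tested genes in 10 equal groups of length, which run from 0.48 to -0.17 before removal and lie between 0.00 and 0.05 after it. Core genes (blue) are spread around the line of all genes, and most regulatory-particle genes (red) lie under it.

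Genes of the 19S regulatory particle that passed the test were mostly lower, in the plain fit and with the length trend removed. This did not hold with upper-quartile factors at 4 Hz, where 2 rose and 2 fell (median -0.06, and 0.09 over all genes). At 1 Hz these factors gave 1 higher and 3 lower, and the shares of all genes called with them are not given here. In the plain fit at 4 Hz, 11 of 17 had a negative log2(FC), with a median of -0.09, and 6 fell, beside 23.9% of all genes. At 1 Hz, the median was -0.10 and 4 fell, beside 18.1% of all genes. With the length trend removed, 8 fell and 1 rose at both frequencies, with medians of -0.15 at 1 Hz and -0.18 at 4 Hz. In that fit, 19% of all genes fell at 1 Hz and 24.5% at 4 Hz. On log2(TPM + 1), 10 were lower at 1 Hz (median -0.33) and 13 at 4 Hz (median -0.41), beside 21.9% and 35.9% of all genes. Relative to the median of all genes on this scale, the 4 Hz median was -0.20, a setting added after the data had been seen. Without the 5 libraries with the strongest trend, 10 fell at 1 Hz and 7 at 4 Hz, and 1 rose at each, with the shares of all genes given for this fit above. The summed TPM of the 17 genes was 3090 to 3635 in the controls, 2590 to 3054 at 1 Hz, 2157 to 2854 at 4 Hz, and 3115 to 3379 at 10 Hz. All libraries at 1 and 4 Hz thus lay under every control in this sum, while the 10 Hz libraries lay among the controls. On log2(TPM + 1) the median of all genes was negative as well (-0.14 at 1 Hz and -0.21 at 4 Hz). The share of all genes without overlap in TPM is not given here. In log2 CPM, the mean of these 17 genes overlapped the controls at both frequencies, as given by library below. The summed TPM of the core overlapped between all groups (2761 to 3052 in the controls and 2570 to 3017 at 4 Hz).

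In the base, Psmc2 (Rpt1, an ATPase of the unfolding ring) fell most clearly. It had 154, 172, and 179 CPM in the controls, 130, 136, and 164 at 1 Hz, 127, 131, and 143 at 4 Hz, and 156, 165, and 181 at 10 Hz. All 4 Hz libraries lay under every control, which held for 7 members and for 14.7% of all genes, and 2 of the 1 Hz libraries reached into the control range. Its log2(FC) was -0.24 ± 0.063 at 1 Hz and -0.35 ± 0.063 at 4 Hz (adjusted p = 0.0039 and 6.1e-05), and -0.02 ± 0.063 at 10 Hz. The gene (chr5:21989254-22008796, plus strand) overlaps Dnajc2 on the other strand, and how counting used the strand is not given in the sources used here. The remaining ATPase genes did not pass at 1 or 4 Hz, from -0.17 (Psmc5) to 0.16 (Psmc6). Psmd2 (Rpn1), a large scaffold that receives shuttle factors, had -0.12 ± 0.063 at 1 Hz and -0.09 ± 0.063 at 4 Hz and did not pass. Psmd1 (Rpn2), the other scaffold, fell slightly at 4 Hz (-0.13 ± 0.056, adjusted p = 0.045), a call that was lost under 5 of 11 alternatives, removal of the length trend among them, and without Control replicate 6 or 4 Hz replicate 1, 2, or 6.

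In the lid, 3 of 8 genes fell at 1 Hz and 4 at 4 Hz, beside 18.1% and 23.9% of all genes, and 1 rose. Psmd3 (Rpn3) fell at 1 Hz, with a log2(FC) of -0.24 (adjusted p = 0.0041), as did Psmd6 (Rpn7), with -0.29 (adjusted p = 0.025), and at 4 Hz both fell again, along with Psmd11 (Rpn6) and Psmd12 (Rpn5). With upper-quartile factors, Psmd3, Psmd6, and Psmd11 lost their calls at 4 Hz. Psmd6 also lost its call at 4 Hz without 4 Hz replicate 2 or 5, and at 1 Hz with 2 groups only and without Control replicate 3 or 1 Hz replicate 1, 2, 3, or 5. The call of Psmd12 at 1 Hz was lost under 4 of 12 alternatives and without any of 7 single libraries. For Psmd12 the CPM were 141, 153, and 160 in the controls and 127, 129, and 133 at 4 Hz, so that the groups did not overlap. This corresponded to -0.23 ± 0.064 (adjusted p = 0.0045). Psmd14 (Rpn11), the deubiquitinase of the lid, had -0.04 ± 0.13 at 1 Hz and -0.09 ± 0.13 at 4 Hz. Psmd8 (Rpn12), which is incorporated last during assembly of the lid, went the other way. Its CPM were 272, 296, and 307 in the controls, 320, 349, and 378 at 1 Hz, 339, 359, and 391 at 4 Hz, and 301, 313, and 355 at 10 Hz. Every library at 1 and 4 Hz was above every control, which held for 2 members and 5.55% of all genes at 1 Hz and for 3 members and 12.9% at 4 Hz. It rose by 0.26 ± 0.060 at 1 Hz and by 0.31 ± 0.060 at 4 Hz (adjusted p = 0.0013 and 1.6e-04). The rise held with the length trend removed, but on log2(TPM + 1) the value was 0.05 at 1 Hz and -0.02 at 4 Hz, and the call was lost at both. The median of all genes on that scale was -0.14 at 1 Hz and -0.21 at 4 Hz, and Psmd8 lay above it at both.

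The chaperones of the regulatory particle, which bind ATPase subunits during assembly and leave the finished particle, did not move together. Psmd5 (S5b), the partner of Psmc2 in the base precursor, had 72.6, 79.99, and 90.9 CPM in the controls, 56.7, 64.3, and 70.7 at 1 Hz, 53.5, 59.2, and 63.9 at 4 Hz, and 72.5, 84.9, and 91.5 at 10 Hz. All 1 and 4 Hz libraries were under every control. It fell, with a log2(FC) of -0.34 ± 0.073 at 1 Hz and -0.46 ± 0.074 at 4 Hz (adjusted p = 8.6e-04 and 1.8e-05), while at 10 Hz it had 0.05 ± 0.073. Psmd10 (gankyrin) had 18.2, 21.0, and 22.2 CPM in the controls and 22.1, 26.7, and 38.8 at 4 Hz, with overlap at the edge only. It rose at 4 Hz by 0.43 ± 0.14 (adjusted p = 0.014), which was lost on the TPM scale, without 4 Hz replicate 3 (0.28), and without the 5 libraries (0.19). Psmd9 (p27) had 0.00 ± 0.078 at 1 Hz and -0.02 ± 0.079 at 4 Hz. Psmd5 and Psmd10, like Psma7, Psme1, Psme2, and Psmf1, overlap genes on the opposite strand.

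The alternative caps held the largest changes of the group, in opposite directions for the related caps PA28αβ and PA28γ. Psme1 and Psme2 encode the α and β subunits of PA28αβ, an interferon-inducible cap that is mostly cytosolic, and lie side by side on Chr 14 (55815190-55822034, plus strand, and 55824895-55829173, minus strand). Psme1 had 14.7, 17.2, and 17.7 CPM in the controls, 20.2, 23.5, and 27.2 at 1 Hz, 20.2, 23.9, and 35.1 at 4 Hz, and 16.3, 17.04, and 24.5 at 10 Hz. All libraries at 1 and 4 Hz were above every control. It rose by 0.48 ± 0.12 at 1 Hz and 0.62 ± 0.12 at 4 Hz (adjusted p = 0.0038 and 2.3e-04), and the value at 10 Hz was 0.16 ± 0.12 (adjusted p = 0.84). Psme2 had 27.8, 30.2, and 38.0 CPM in the controls, 33.9, 43.8, and 59.5 at 1 Hz, 38.4, 46.8, and 64.9 at 4 Hz, and 29.9, 32.7, and 40.1 at 10 Hz. It was above every control in all 4 Hz libraries, and 2 of the 1 Hz libraries lay within the control range. Its log2(FC) was 0.55 ± 0.14 at 1 Hz and 0.63 ± 0.14 at 4 Hz (adjusted p = 0.0027 and 4.5e-04). Both transcripts are short, at 0.363 and 0.330 times the median gene, and with the length trend removed Psme1 was at 0.33 and Psme2 at 0.31 at 4 Hz, still past the threshold. On log2(TPM + 1), Psme1 no longer passed (0.30 at 4 Hz and 0.33 at 1 Hz), whereas Psme2 did. Without 1 Hz replicates 4 and 6, Psme2 was at 0.31 at 1 Hz and did not pass. A near-identical copy of Psme2 held 8.85% as many counts as Psme2 itself, so the counting could split reads between them.

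Psme3, which encodes PA28γ, the nuclear cap, fell more than any other member. It had 139, 148, and 163 CPM in the controls, 94.5, 105, and 111 at 1 Hz, 82.7, 89.2, and 103 at 4 Hz, and 118, 145, and 162 at 10 Hz. The 1 and 4 Hz libraries were all under the lowest control, which held for 4 members and 8.58% of all genes at 1 Hz, and 3 libraries at 10 Hz were under it too. Its log2(FC) was -0.53 ± 0.076 at 1 Hz and -0.71 ± 0.076 at 4 Hz (adjusted p = 8.1e-06 and 7.2e-08), and -0.07 ± 0.075 at 10 Hz (adjusted p = 0.91). The 4 Hz level was 0.612 times that of the control. Its transcript is as long as that of the median gene (1.01 times), and with the length trend removed the value at 4 Hz was -0.69. The gene (chr11:101206777-101215813, plus strand) overlaps no gene on the opposite strand. Psmf1 (PI31), a regulator that binds the core and takes part in its transport, fell as well, with 46.9, 49.7, and 52.7 CPM in the controls, 38.1, 41.8, and 44.1 at 1 Hz, and 32.2, 39.2, and 44.2 at 4 Hz. The log2(FC) was -0.26 ± 0.075 at 1 Hz and -0.34 ± 0.076 at 4 Hz (adjusted p = 0.0096 and 5.9e-04). Psme4 (PA200), which has the longest transcript of the group, had -0.09 ± 0.071 and -0.08 ± 0.071 and did not pass. At 4 Hz, the calls of Psmc2, Psmd12, Psmd5, Psme3, and Psmf1 (lower) and of Psme2 (higher) were made under each of 11 alternatives to the fit and with each library left out. At 1 Hz this held, over 12 alternatives, for Psmc2, Psmd3, Psmd5, Psme3, and Psmf1, and for 0 of the 3 genes that rose. Psmd8 and Psme1 lost their calls only on the 2 TPM scales, at 1 Hz and at 4 Hz. On log2(TPM + 1), 3.64% of all genes were higher and 21.9% lower at 1 Hz, and 5.92% and 35.9% at 4 Hz. Psme2 lost its call at 1 Hz only without 1 Hz replicates 4 and 6.

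**Figure D4:**
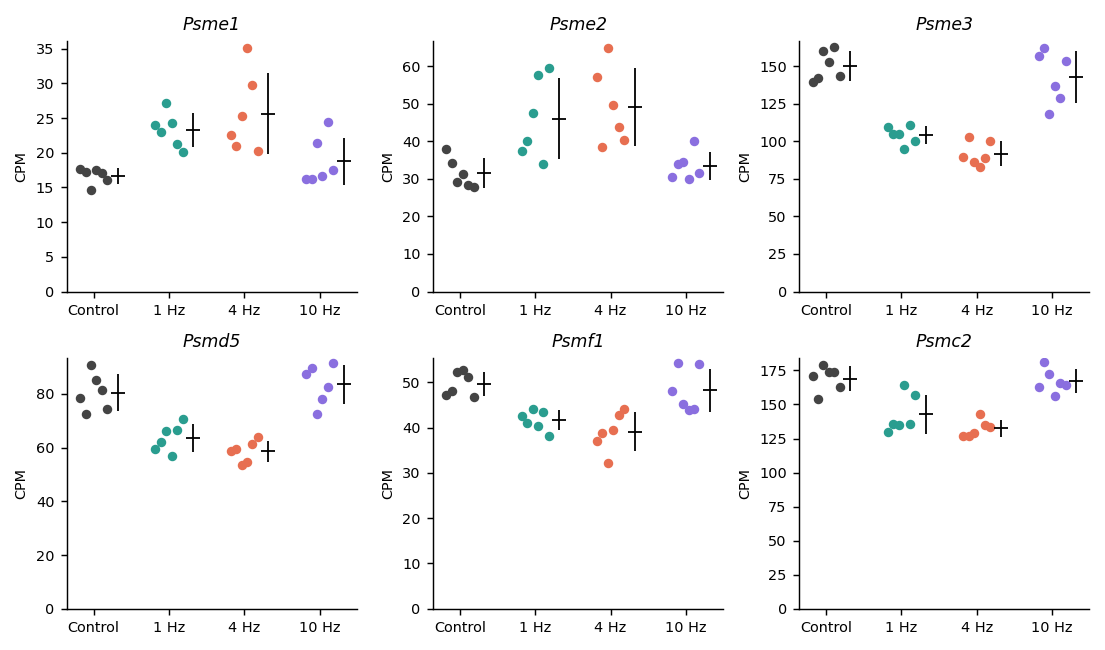
CPM in each of 24 libraries for the cap genes Psme1, Psme2, and Psme3, the chaperone Psmd5, the regulator Psmf1, and the ATPase Psmc2. Colored points are libraries, and the bars are the mean ± SD of 6. Psme3 lies at 82.7 to 111 CPM at 1 and 4 Hz, under all controls (139 to 163), and Psme1 lies above all controls in the same libraries.

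The balance between core and regulatory particle was then followed by library. The mean deviation of the 14 core genes from their average over all libraries, in log2 CPM, was -0.14 to 0.07 in the controls, -0.27 to 0.44 at 1 Hz, -0.11 to 0.38 at 4 Hz, and -0.20 to 0.08 at 10 Hz. For the 17 genes of the regulatory particle it was -0.03 to 0.12 in the controls, -0.19 to 0.22 at 1 Hz, -0.10 to 0.06 at 4 Hz, and -0.08 to 0.10 at 10 Hz. The core therefore varied more between libraries of a group, with a pooled SD of 0.200 against 0.102. The core minus the regulatory particle was -0.17 to -0.01 in the controls, -0.12 to 0.30 at 1 Hz, -0.01 to 0.34 at 4 Hz, and -0.14 to -0.02 at 10 Hz. Its highest values, 0.15 to 0.34, came from the same 5 libraries in which short genes stood above long ones by over 0.25, and the libraries with a core mean over 0.2 were these 5 as well. The other libraries at 1 Hz had a core mean of -0.27 to -0.07 and a mean of the regulatory particle of -0.19 to -0.09, all under the controls for the latter (lowest -0.03).

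**Figure D5:**
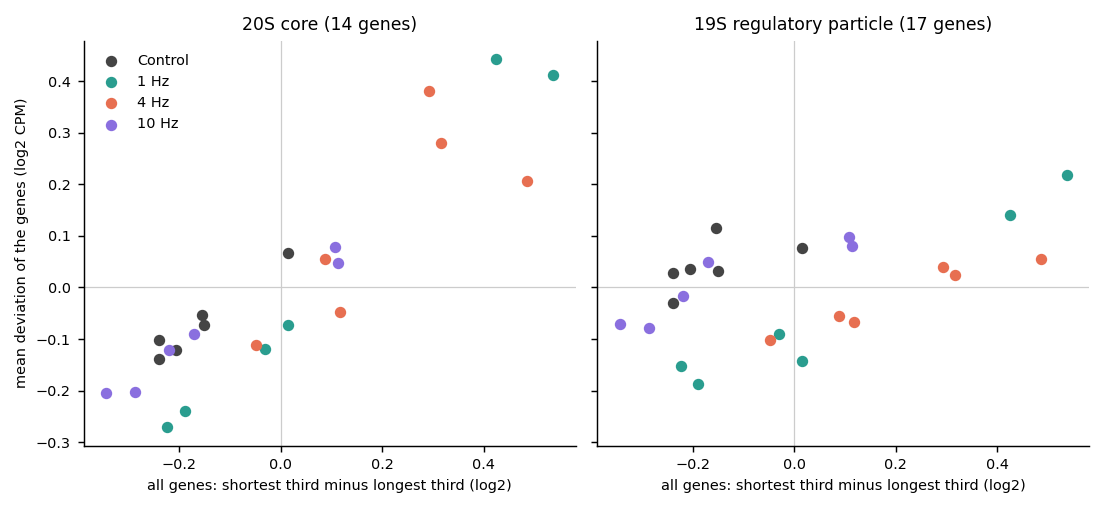
Mean deviation of the core and regulatory-particle genes (log2 CPM) in each of 24 libraries, against the difference between the shortest and the longest of 3 equal length groups of all tested genes (log2). Each point is a library, colored by group. The core rises along the axis to 0.44 in 1 Hz replicate 6. The controls span -0.24 to 0.01 on the axis. Within or at the edge of that span lie 1 Hz replicates 1, 2, 3, and 5 and 4 Hz replicate 2. Their regulatory-particle means (-0.19 to -0.09) are under those of the controls. The other 1 and 4 Hz libraries lie beyond every control on the axis, so none can be set beside a control at a like position.

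Tissues trained at different frequencies were also compared directly. Between 4 and 1 Hz, edgeR called 0 members and 0% of all genes, with 1 member and 1465 genes at an unadjusted p under 0.05, and DESeq2 and limma on TPM called 0 members too. Without 1 Hz replicates 4 and 6, 11 members and 4.89% of all genes were higher at 4 Hz than at 1 Hz. Against 1 Hz, 10 Hz tissues had 5 members higher and 1 lower (14.8% and 13.1% of all genes), and against 4 Hz they had 7 higher and 9 lower (21.9% and 24.4%). Psme3 was higher at 10 Hz than at 1 Hz by a log2(FC) of 0.46 (adjusted p = 9.1e-05) and than at 4 Hz by 0.64 (adjusted p = 5.9e-07). Psmd5 was higher by 0.39 (adjusted p = 3.5e-04) and 0.51 (adjusted p = 7.2e-06), and Psmc2 by 0.23 (adjusted p = 0.0098) and 0.34 (adjusted p = 1.6e-04). Psme2 was lower at 10 Hz, with a log2(FC) of -0.47 against 1 Hz (adjusted p = 0.013) and -0.55 against 4 Hz (adjusted p = 0.0021). Psma7 was lower at 10 Hz than at 4 Hz, with a log2(FC) of -0.58 (adjusted p = 0.0061). These comparisons share the 10 Hz libraries, and those at 4 and 1 Hz above share the controls.

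The sequences upstream of the members were also searched for motifs, with the direction of the calls known. A link between a motif and a change in level was not tested. Promoters (250 bases before the start, RefSeq, GRCm38.p6) were found for 34 of 41 members, with 37 entries. A set of 3 motifs were searched on both strands, namely the ETS core CCGGAAG, the CCAAT box CCAAT, and the core of the antioxidant response element, TGACNNNGC, to which NRF1 and NRF2 bind. CCGGAAG occurred in 9 of 15 promoters of the regulatory particle (60%), in 1 of 13 of the core (7.69%), and in 6.91% of 32851 promoters in the table. By gene it was 8 of 14 and 1 of 12, as Psmc2 had more than 1 entry with the motif. The table covers 27025 genes, whether or not they were expressed in these tissues. The share among tested genes only is not given here. CCAAT occurred in 53.8% of core promoters, 26.7% of those of the regulatory particle, and 33.8% of all. TGACNNNGC occurred in 13.5% of the members' promoters and 10.2% of all. Of the 8 regulatory-particle genes with CCGGAAG, 3 fell at 1 Hz and 4 at 4 Hz, and 0 rose. Of the 6 without it, 0 fell at 1 Hz and 1 at 4 Hz, and Psmd8 rose at both. Of all tested genes, 18.1% fell and 19.2% rose at 1 Hz, and 23.9% and 27.5% at 4 Hz. The shares called among all genes with the motif are not given here. Psmc3, Psmd3, and Psmd7 had no promoter entry, and Psmd3 fell at both frequencies. The difference between genes with and without the motif was not tested, and a match is a stretch of letters, not a bound site. Over all members with a promoter entry, CCGGAAG occurred in 5 of 8 that fell at 4 Hz, in 1 of 7 that rose, and in 5 of 18 that were not called. The motif lay mostly in the regulatory particle, so this split overlaps with that between the particles. The promoters of 9 members that were called at 4 Hz, chosen with their values known to show genes with and without the motif, are given 5′ to 3′ with matches to any of the 3 motifs, or their reverse complements, in capitals.
Psmc2 (chr5:21786497-21786746, plus strand, base ATPase, lower): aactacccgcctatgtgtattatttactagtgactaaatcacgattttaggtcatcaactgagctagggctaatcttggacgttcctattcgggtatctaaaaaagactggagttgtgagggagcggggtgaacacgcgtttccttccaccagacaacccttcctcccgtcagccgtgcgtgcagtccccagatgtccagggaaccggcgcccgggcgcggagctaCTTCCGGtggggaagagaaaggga
Psmd6 (chr14:14120946-14121195, minus strand, lid, lower): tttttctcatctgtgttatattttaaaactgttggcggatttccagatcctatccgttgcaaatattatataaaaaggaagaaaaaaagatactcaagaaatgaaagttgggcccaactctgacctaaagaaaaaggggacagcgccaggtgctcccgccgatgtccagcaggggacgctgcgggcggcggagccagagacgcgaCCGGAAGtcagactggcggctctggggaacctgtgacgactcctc
Psmd12 (chr11:107479278-107479527, plus strand, lid, lower): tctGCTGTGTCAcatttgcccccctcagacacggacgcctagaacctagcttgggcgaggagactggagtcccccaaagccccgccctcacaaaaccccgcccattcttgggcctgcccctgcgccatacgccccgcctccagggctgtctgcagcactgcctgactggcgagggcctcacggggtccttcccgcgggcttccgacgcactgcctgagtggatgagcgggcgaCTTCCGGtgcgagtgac
Psmd8 (chr7:29180674-29180923, minus strand, lid, higher): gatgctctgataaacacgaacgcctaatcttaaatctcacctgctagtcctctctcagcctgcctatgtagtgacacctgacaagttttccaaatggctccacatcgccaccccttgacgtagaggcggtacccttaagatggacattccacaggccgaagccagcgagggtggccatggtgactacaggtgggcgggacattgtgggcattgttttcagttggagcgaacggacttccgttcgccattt
Psma7 (chr2:180042465-180042714, minus strand, alpha ring, higher at 4 Hz): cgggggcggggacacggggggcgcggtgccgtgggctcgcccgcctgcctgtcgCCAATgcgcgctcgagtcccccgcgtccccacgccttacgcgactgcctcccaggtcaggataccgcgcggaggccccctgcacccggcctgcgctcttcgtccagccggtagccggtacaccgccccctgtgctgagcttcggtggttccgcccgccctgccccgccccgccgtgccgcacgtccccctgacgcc
Psmb6 (chr11:70525107-70525356, plus strand, beta ring, higher at 4 Hz): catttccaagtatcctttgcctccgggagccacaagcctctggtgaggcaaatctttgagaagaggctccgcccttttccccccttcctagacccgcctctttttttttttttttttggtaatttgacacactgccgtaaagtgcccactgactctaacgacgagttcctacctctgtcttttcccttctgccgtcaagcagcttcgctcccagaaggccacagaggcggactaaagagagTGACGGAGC
Psme3 (chr11:101315963-101316212, plus strand, cap, lower): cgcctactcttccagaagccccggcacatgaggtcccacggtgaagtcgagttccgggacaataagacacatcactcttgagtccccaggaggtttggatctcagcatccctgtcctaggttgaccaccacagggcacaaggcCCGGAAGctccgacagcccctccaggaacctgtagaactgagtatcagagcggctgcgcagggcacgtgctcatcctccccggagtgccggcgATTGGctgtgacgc
Psmd5 (chr2:34870963-34871212, minus strand, chaperone, lower): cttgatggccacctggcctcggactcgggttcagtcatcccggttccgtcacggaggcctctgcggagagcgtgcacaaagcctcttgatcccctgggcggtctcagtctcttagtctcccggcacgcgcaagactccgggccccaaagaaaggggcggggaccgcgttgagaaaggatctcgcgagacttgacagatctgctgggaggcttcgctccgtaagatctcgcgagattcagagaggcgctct
Psmf1 (chr2:151741311-151741560, minus strand, regulator, lower): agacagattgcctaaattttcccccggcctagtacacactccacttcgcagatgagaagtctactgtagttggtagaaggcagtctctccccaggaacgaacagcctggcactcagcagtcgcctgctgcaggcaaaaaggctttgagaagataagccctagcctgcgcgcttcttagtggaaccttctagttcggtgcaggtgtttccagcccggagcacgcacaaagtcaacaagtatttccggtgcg
Psmc2, Psmd6, Psmd12, and Psme3 held a match to CCGGAAG, or its reverse complement CTTCCGG. Psmd5 and Psmf1, which fell as well, held none, nor did Psmd1, whose promoter is not shown. Psmd8 held none of the 3 motifs, and the 2 core genes held no CCGGAAG. Psma7 held a CCAAT box, Psmd12 and Psme3 each held a match to another motif as well, and Psmb6 ended in a match to TGACNNNGC directly before the start.

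The rest of the pathway was taken from a list of 36 genes that assemble the proteasome, bind to it, or feed it, 33 of which were tested. At 1 Hz 5 rose and 12 fell, at 4 Hz 8 rose and 15 fell, and at 10 Hz 0 changed by edgeR. Of all genes, 19.2% rose and 18.1% fell at 1 Hz and 27.5% and 23.9% at 4 Hz, so the genes that rose made up a share near or below that of all genes. Adrm1 (Rpn13), the ubiquitin receptor of the base, fell, with a log2(FC) of -0.48 at 1 Hz and -0.52 at 4 Hz (adjusted p = 6.8e-06 and 1.1e-06). The shuttle factors that carry ubiquitinated proteins to the base fell in part. Ubqln1 had -0.36 at 1 Hz and -0.47 at 4 Hz (adjusted p = 1.7e-04 and 2.7e-06), Ubqln4 had -0.46 and -0.45, and Rad23b had -0.22 and -0.31, all past the threshold, while Ubqln2 had -0.21 at 1 Hz (adjusted p = 0.087) and passed at 4 Hz with -0.27 (adjusted p = 0.026). The segregase that extracts ubiquitinated proteins from complexes fell in all 3 of its genes listed, with Vcp at -0.19 and -0.26, Nploc4 at -0.40 and -0.51, and Ufd1 at -0.20 and -0.18. Usp14, a deubiquitinase bound to the base, fell, with -0.17 at 1 Hz and -0.37 at 4 Hz (adjusted p = 0.046 and 6.8e-05). Genes that rose at 4 Hz included 3 with transcripts shorter than the median gene. By log2(FC) these were Sem1 (0.59), the smallest lid subunit, Pomp (0.40), the maturation factor of the core, and Rps27a (0.88), a ubiquitin-ribosome fusion. Their values with the length trend removed are not given here. With that trend removed, 6 genes of the list rose and 16 fell at 4 Hz, beside 24.8% and 24.5% of all genes. At 1 Hz 7 rose and 12 fell, beside 19.3% and 19%. Of the transcription factors, Nfe2l1 rose at 4 Hz by 0.20 ± 0.056 (adjusted p = 0.0037) and had 0.12 ± 0.056 at 1 Hz (adjusted p = 0.089). Ddi2, the protease that activates NRF1, fell, with -0.59 at 1 Hz and -0.66 at 4 Hz (adjusted p = 0.0014 and 3.2e-04). Nfe2l2 (NRF2) fell at 4 Hz, with -0.29 ± 0.070 (adjusted p = 0.0014). At 10 Hz against control, these 3 genes had 0.02, 0.00, and 0.11, with none past the threshold.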

How the data were processed

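RNA of 24 tissues was sequenced by the authors as 50-base read pairs. The nf-core/rnaseq pipeline (with STAR and Salmon, per the labels) was run by the authors on GRCm39 with Ensembl genes. The deposited expected counts per gene are Salmon estimates, not normalized, and the deposited TPM are divided by transcript length and scaled per library. The use of strand in counting is not given in the sources used here.

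Estimated counts were rounded, filtered by filterByExpr (minimum count 10, total 15), scaled by TMM, and tested in edgeR 4.0.16 (R 4.3.3) by a robust quasi-likelihood F test in 1 fit of 24 libraries. P-values are two-sided and were adjusted by Benjamini-Hochberg over 13315 genes. SE is the log2(FC) over the root of F. Libraries of a group are called biological replicates by the authors. The biological coefficient of variation, a spread between single libraries taken over all genes, was 14.8%. It is not a limit for means of 6 libraries, and Psmd1 was called at 4 Hz at 0.911 times the control. Small changes of genes with a wide spread can still be missed. Same-numbered libraries did not deviate together (r over 0.1 in 3 of 36 pairs), so the numbers do not pair them.

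Alternatives were RLE and upper-quartile factors, the filter left out or made strict (at least 50 counts in 6 libraries), 2 groups only, a replicate block, DESeq2 1.42.0, limma 3.58.1 on log2(TPM + 1) and log2(TPM + 0.1) (with 6 libraries at 1 TPM), removal of a lowess trend on length, and leaving out libraries. The method was tested on simulated data for 4 Hz against control, with the same spread for all genes and no length trend between libraries. It therefore does not cover the length trend seen in these libraries. Members are named where they are catalytic, had the smallest p of their subgroup, or rose in a comparison with the control, and Psma1, Psma5, Psmb3, Psmc5, Psmc6, Psmd1, Psmd3, Psmd6, Psmd11, Psmd12, Psmd14, Psme4, and Psmf1 were added after their values were seen. The members, lists, and tests were chosen with earlier results of these data known. Paaf1, a further listed gene of the pathway, was not analyzed here. Gene positions are from GENCODE M39.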

Additional observations from a re-analysis of the deposited data

How the results depend on the processing

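Members called at 1 or 4 Hz against control kept their direction under the alternatives, apart from Psmd8 at 4 Hz, which was at -0.02 on both TPM scales. The median of all genes at 4 Hz was -0.21 on log2(TPM + 1) and -0.24 on log2(TPM + 0.1). Core genes that were not called changed sign as well, and on log2(TPM + 1) the core had 4 positive values at 4 Hz in place of 11, and 2 at 1 Hz in place of 12. Psma6, Psma7, Psmb1, Psmb6, and Psmd10 lost their calls at 4 Hz on both TPM scales and without the 5 libraries. A kept direction can stand for almost no change. Mean TPM in the controls and at 4 Hz was 189 and 190 for Psmb1 and 238 and 241 for Psma6, but 270 and 317 for Psma7. The counts of called members moved more, and the cause was not tested. In the order higher and lower, an absolute log2(FC) over 0.5 left 1 and 1 at 1 Hz, 3 and 1 at 4 Hz, 0 and 0 for 10 Hz against 1 Hz, and 2 and 2 for 10 Hz against 4 Hz. Both TPM scales gave 1 and 15 at 1 Hz and 1 and 21 at 4 Hz. They gave 15 and 1 for 10 Hz against 1 Hz, and 22 and 1 for 10 Hz against 4 Hz. The medians were -0.11 (core) and -0.33 (regulatory particle) at 1 Hz, and -0.10 and -0.41 at 4 Hz. Less the median of all genes, the regulatory particle was at -0.20 at 4 Hz (chosen after the data were seen). The core medians lay above the median of all genes on log2(TPM + 1), which was -0.14 at 1 Hz and -0.21 at 4 Hz. Removal of the length trend gave 3 and 15 at 1 Hz, and 6 and 15 at 4 Hz, with a core median of -0.02 at 4 Hz. It gave 13 and 1 for 10 Hz against 1 Hz, and 14 and 4 for 10 Hz against 4 Hz. Upper-quartile factors gave 11 and 5 at 4 Hz, with 6 core genes higher and 0 lower, and 2 regulatory-particle genes higher and 2 lower. For 10 Hz against 4 Hz, these factors gave 4 and 10, and no filter gave 5 lower. Without 1 Hz replicates 4 and 6, there were 2 and 14 at 1 Hz (medians -0.14 and -0.26). That fit gave 10 and 0 for 10 Hz against 1 Hz, and 11 and 0 for 4 Hz against 1 Hz. Its shares of all genes are not given here, apart from the 4.89% higher at 4 Hz than at 1 Hz. Those with upper-quartile factors and with no filter are not given either. The fit without the 5 libraries with the strongest length trend was also chosen after the data were seen. It gave 3 and 15 at 1 Hz (medians -0.12 and -0.24), and 3 and 10 at 4 Hz (core median 0.02). For 10 Hz it gave 12 and 1 against 1 Hz, and 8 and 0 against 4 Hz.

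With single libraries left out, the counts ran from 3 to 5 higher and 5 to 12 lower at 1 Hz, 5 to 11 higher and 7 to 11 lower at 4 Hz, 0 to 3 lower for 10 Hz against 1 Hz, and 5 to 12 lower for 10 Hz against 4 Hz. The count at 1 Hz was 5 higher without 1 Hz replicate 1 or 5 and 12 lower without 1 Hz replicate 4, and that at 4 Hz was 5 higher without 4 Hz replicate 3. For 10 Hz against 1 Hz, 0 were lower without 1 Hz replicate 4 or 6, 2 without 1 Hz replicate 1 or 10 Hz replicate 3 or 5, and 3 without 1 Hz replicate 5. For 10 Hz against 4 Hz, 5 were lower without 4 Hz replicate 3 or 4 or 10 Hz replicate 1 or 6. The core median ran from -0.01 to 0.19 at 1 Hz and from 0.15 to 0.28 at 4 Hz. Psma6 lost its call without Control replicate 3, 4, 5, or 6 or 4 Hz replicate 1, 3, or 4, and Psmb1 without 4 Hz replicate 3 (0.26) or 4 (0.28). With the replicate number as a block, 3 members were higher and 6 lower at 1 Hz, and 7 higher and 8 lower at 4 Hz, with Psmd12 at 1 Hz and Psma6 and Psmd1 at 4 Hz no longer called.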

Other observations

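Of the 3 immunoproteasome genes, which replace the catalytic subunits under interferon, Psmb8 and Psmb9 were close to absent from these tissues. Psmb8 had 45 counts over 17 of 24 libraries and Psmb9 had 73 over 21, and both were under the filter. Psmb10 passed it, at 12.2 to 19.5 TPM in the controls and 11.2 to 21.6 TPM at 4 Hz, with a log2(FC) of 0.03 ± 0.15 at 1 Hz and 0.11 ± 0.15 at 4 Hz (adjusted p = 0.88 and 0.55), in the same libraries in which Psme1 and Psme2, also interferon-inducible, were higher.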
